A study of Homo sapiens with 6 samples.

Results

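The BTG/TOB genes encode a small family of antiproliferative proteins, and 5 of them, BTG1, BTG2, BTG3, TOB1 and TOB2, were followed here after knockdown of their partner CNOT7. The members were chosen by name, as the family proteins that bind the deadenylases CNOT7 and CNOT8, and the rule itself uses no measured value. They were 5 of the 58735 genes in the count table. BTG4, the germline relative, was not among them and is described with the related transcripts.

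BTG and TOB proteins share an amino-terminal BTG domain, which docks onto the CNOT7 or CNOT8 subunit of the CCR4-NOT complex. This complex shortens the poly(A) tails of mRNAs, which is usually the first step of their decay. TOB1 and TOB2 also hold motifs for the poly(A)-binding protein PABPC1. High levels of the family slow the entry of cells into S phase.

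RNA was sequenced from SW480, a human colorectal adenocarcinoma cell line, as 3 control and 3 CNOT7 knockdown libraries, and neither group was treated further. The knockdown was a stable shRNA line, so its cells descend from transduced and selected cells. The control columns were headed shNc, and how the control cells were made was not given in the labels. Which shRNA each library carried was not given in the labels, and the paper names HCT116 for its RNA sequencing where the labels name SW480. It was not stated whether the libraries came from separate cultures, so the p-values measure the spread between these libraries, which may be technical.

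The total counts were 23788451 to 25982493 in the control libraries and 27523812 to 29104872 in the knockdown libraries, and mitochondrial genes took 6.36% to 7.40% of them. Of the colon epithelial markers, KRT8 averaged 2750 CPM (a count scaled to library size with edgeR's TMM factors) in control cells, whereas KRT20 and CEACAM5 were at or near 0. Of the 7 tested, VIL1 (log2 fold change 0.72) and CDH1 (0.51) were called higher in the knockdown and KRT19 (-0.18) and KRT8 (-0.15) lower in edgeR's test, and the part of these changes in the members' results was not tested. Of the 6 markers of other cell types, COL1A1 reached a group mean of 9.15 CPM and the other 5 stayed near 0. Their summed level was 7.52 to 9.93 CPM in the control libraries and 9.37 to 10.5 CPM in the knockdown libraries. The libraries of each group were spread along GC content, with library 2 at the negative end in both groups. Across 11977 genes, the deviation of a library from its group mean correlated with transcript GC content at r = -0.59 in control 2 and -0.68 in knockdown 2. The value was 0.53 in control 1, 0.15 in control 3, 0.22 in knockdown 1 and 0.60 in knockdown 3. Deviations within a group sum to 0, so these values are not independent of each other. The log2 fold change between the groups correlated with GC content at r = -0.0028 across the same genes, which are not independent replicates.

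CNOT7, the targeted deadenylase, checked the labels. Its level was 169, 191 and 176 CPM in control libraries 1 to 3 and 43.4, 47.2 and 38.6 CPM in knockdown libraries 1 to 3. All 3 knockdown libraries were therefore low, and the log2 fold change was -2.05 ± 0.0734 (SE, n = 3 per group, edgeR quasi-likelihood test, Benjamini-Hochberg adjusted p = 2.64e-12). CNOT8, the paralogous deadenylase that binds the same BTG domain, stood at 64.3, 68.7 and 63.8 CPM in the control libraries and at 78.1, 84.1 and 78.4 CPM in the knockdown libraries. It rose in the knockdown, by 0.29 ± 0.0613 on the log2 scale (edgeR adjusted p = 0.00204), and was called higher in all 15 alternative settings tried.

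All 5 members were expressed and passed the filter on low counts, and 1 of them, BTG2, changed. BTG2 rose 1.31-fold, while BTG1, BTG3, TOB1 and TOB2 had fold changes of 0.928 to 0.961 that did not pass the test. Thus 1 of 5 members was called higher and 0 were called lower at an adjusted p below 0.05 in edgeR's quasi-likelihood test, with 1 member at an unadjusted p below 0.05. Of the 17574 genes tested, 25.2% were called, 13.3% higher and 11.9% lower, so the members' count of 1 in 5 was near this background. The median log2 fold change was -0.09 over the members and 0.00393 over all genes tested.

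**Figure D1:**
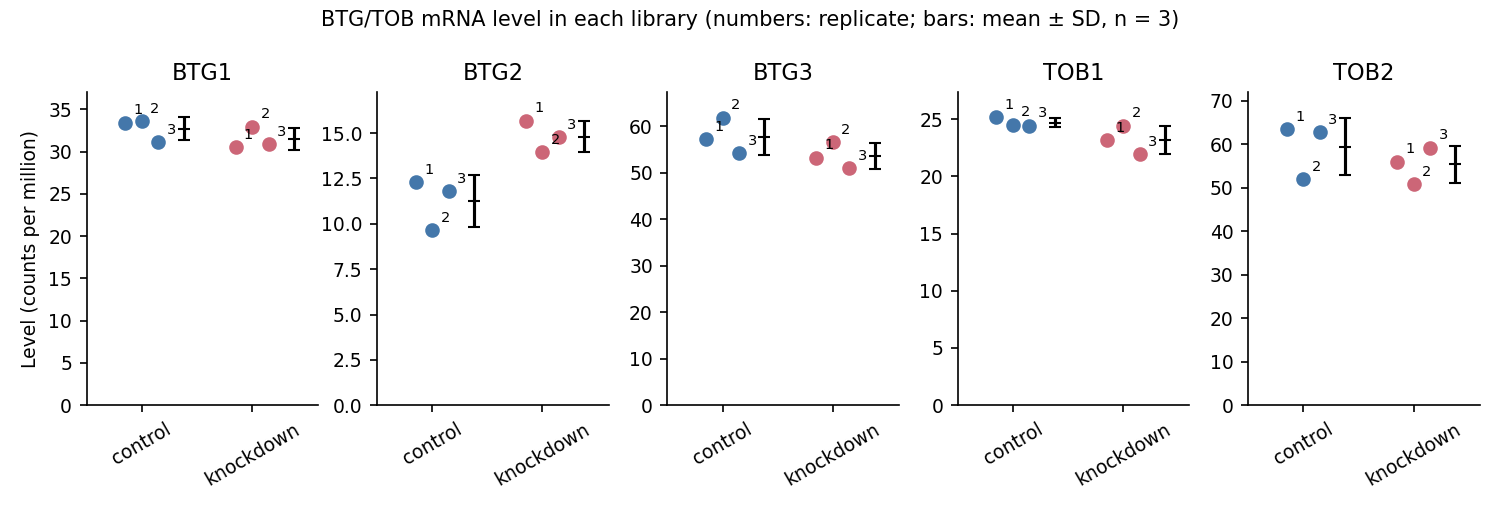
Level of each BTG/TOB mRNA in CPM (vertical axis, from 0) in the 3 control and 3 knockdown libraries. Points are libraries with their replicate numbers and bars are the mean ± SD. BTG2 is the member whose groups do not overlap, with 9.63 to 12.3 CPM in control and 14.0 to 15.7 CPM in knockdown libraries.

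BTG2 (ENSG00000159388, chr1:203305491-203309602, plus strand) is an immediate early member of the family. It was counted 316, 224 and 296 times in the control libraries and 442, 385 and 440 times in the knockdown libraries. After scaling, these counts were 12.3, 9.63 and 11.8 CPM in control and 15.7, 14.0 and 14.8 CPM in knockdown cells. Every knockdown library was above every control library, and control 2 was the lowest of the 6. Such a separation of the groups was seen in 1 of the 5 members and in 38.8% of all genes tested, with the knockdown libraries higher in 20.6%. The means were 11.2 ± 1.42 CPM (SD, n = 3) and 14.8 ± 0.866 CPM (SD, n = 3). The log2 fold change was 0.39 ± 0.107 (SE), with a 95% interval of 0.17 to 0.62, or 12.5% to 53.6% more mRNA, and edgeR's adjusted p was 0.0114. In these bulk samples, a change in the share of cells that express a gene and a change in its RNA per cell cannot be told apart.

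The call on BTG2 rested on single libraries. Without control 2, the log2 fold change was 0.29 and edgeR's adjusted p was 0.0526, and without knockdown 1 the values were 0.34 and 0.0764. Without any of the other 4 libraries, and in the other 9 alternative settings, BTG2 was called higher. Over all 15 alternatives, its log2 fold change ranged from 0.29 to 0.46. Control 2, where BTG2 was lowest, was also the control library whose deviations correlated negatively with GC content, and the part of this in the result was not tested directly. In alternatives chosen after seeing the data, trends along GC content and gene length were removed. BTG2 then had a log2 fold change of 0.32 (edgeR adjusted p = 0.01). With the mean trend of each library set to 0, it was 0.38 (adjusted p = 0.0038). These fits called 7090 and 6611 of the 17574 genes tested, against 4424 in the main analysis. Neither fit was repeated without control 2.

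**Figure D2:**
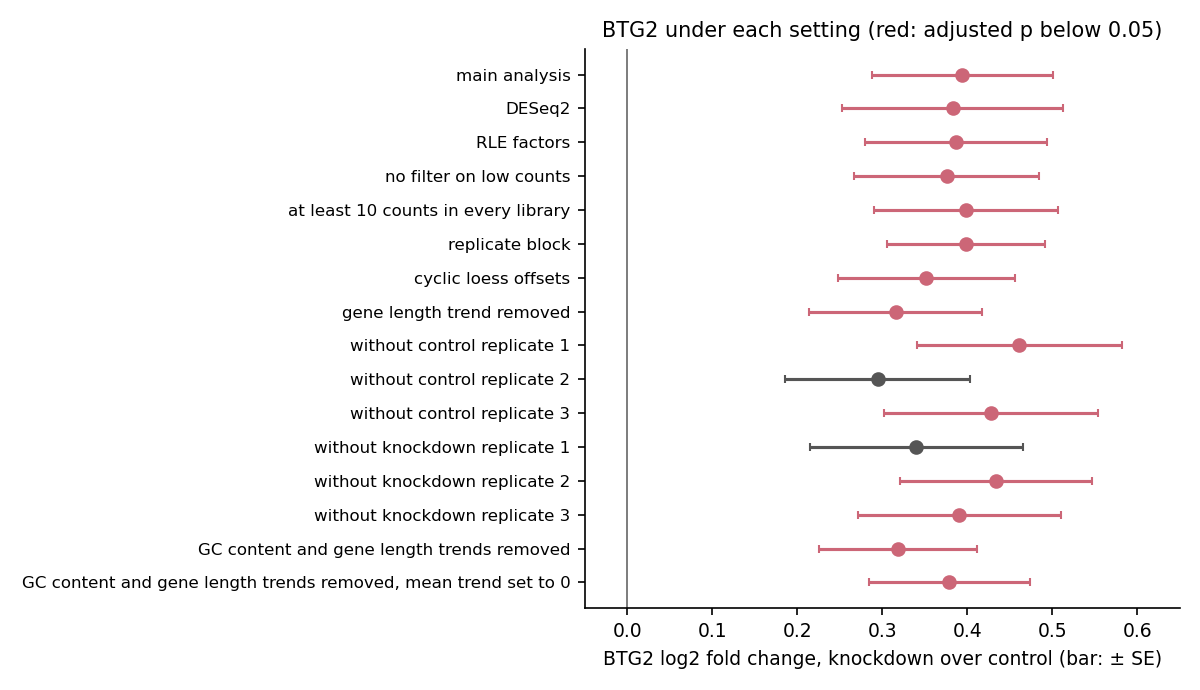
BTG2 log2 fold change, knockdown over control (horizontal axis), in the main analysis and under 15 alternative settings (rows), with bars of ± SE. All points lie between 0.29 and 0.46, and the adjusted p stays above the threshold (grey) without control 2 or without knockdown 1.

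BTG1 (ENSG00000133639, chr12:92140278-92145897, minus strand) is the closest relative of BTG2 and is best known from lymphocytes. Its counts were 859, 782 and 780 in the control libraries and 861, 909 and 920 in the knockdown libraries, or 33.4, 33.6 and 31.1 CPM against 30.5, 32.9 and 30.9 CPM. The groups overlapped. The log2 fold change was -0.06 ± 0.0725 (SE; edgeR adjusted p = 0.62), and its 95% interval left room for a difference between -13.5% and 6.89%.

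BTG3 (ENSG00000154640, chr21:17593653-17612947, minus strand), also called ANA, is a member that binds E2F1. It was counted 1471, 1438 and 1357 times in control and 1501, 1561 and 1517 times in knockdown libraries. This gave 57.2, 61.8 and 54.1 CPM in control and 53.3, 56.6 and 50.9 CPM in knockdown cells, and library 2 was the highest in both groups. The ranges overlapped, and the log2 fold change was -0.11 ± 0.0691 (SE; 95% interval -0.25 to 0.04; edgeR adjusted p = 0.284).

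TOB1 (ENSG00000141232, chr17:50862223-50867978, minus strand) is an adaptor that links CNOT7 and CNOT8 to PABPC1 and to CPEB proteins. Its counts were 647, 570 and 612 in control and 652, 674 and 653 in knockdown libraries. The scaled levels were 25.2, 24.5 and 24.4 CPM in control and 23.1, 24.4 and 21.9 CPM in knockdown cells. The groups met near 24.4 CPM, and the log2 fold change was -0.09 ± 0.0778 (SE; 95% interval -0.26 to 0.07; edgeR adjusted p = 0.422).

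TOB2 (ENSG00000183864, chr22:41433492-41447023, minus strand) is the paralog of TOB1, with the same kind of PABPC1-binding tail. Counts of 1633, 1209 and 1575 were found in control and 1579, 1403 and 1765 in knockdown libraries. In CPM these were 63.5, 52.0 and 62.8 against 56.0, 50.8 and 59.3. Library 2 was the lowest in both groups, opposite to BTG3. The groups overlapped, with a log2 fold change of -0.10 ± 0.0806 (SE; 95% interval -0.27 to 0.07; edgeR adjusted p = 0.389).

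**Figure D3:**
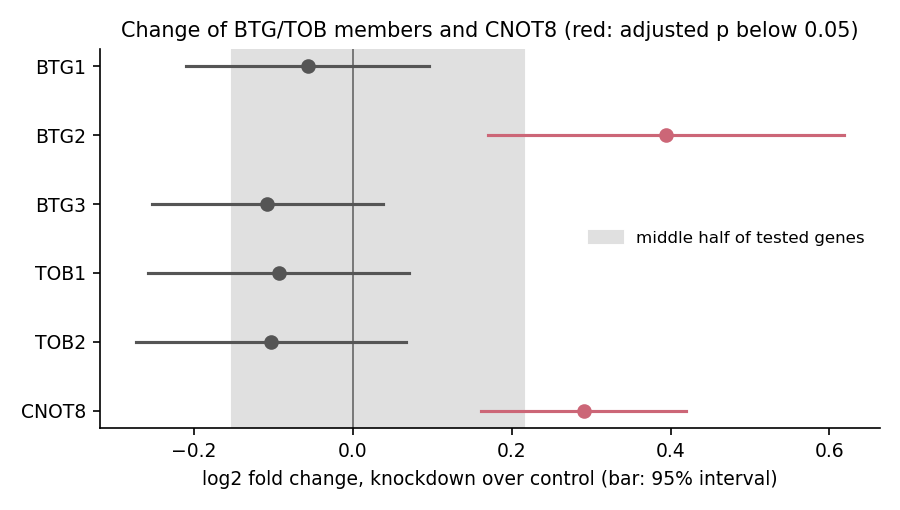
Log2 fold change, knockdown over control (horizontal axis), of the 5 members and CNOT8, with 95% intervals as bars. BTG2 (0.39) and CNOT8 (0.29) passed the test (red). The points of the other 4 members lie inside the grey band, and their bars reach below its lower edge. This band runs from -0.15 to 0.22 and holds the genes tested between the lower and the upper quartile.

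The 4 members that did not pass the test all had values below 0, between -0.06 and -0.11. BTG3 and TOB2 were called lower in 1 of the 15 alternatives, the removal of GC and length trends, with log2 fold changes of -0.16 (edgeR adjusted p = 0.0113) and -0.18 (adjusted p = 0.0162). In that setting the median of all genes tested was also shifted to -0.05. It called 4649 of the 17574 genes tested lower, against 2095 in the main analysis. With the mean trend of each library set to 0, the median was 0.00688 and neither gene was called, at -0.10 (adjusted p = 0.107) and -0.12 (adjusted p = 0.119). BTG1 and TOB1 were called in none of the 15 alternatives.

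Within the groups, the members split by library. In control 2, BTG2 and TOB2 deviated from their group means by -0.21 and -0.19 on the log2 scale, and in knockdown 2 by -0.08 and -0.12. BTG1 and BTG3 were above their group means in both of these libraries. TOB1 did not keep 1 direction, with -0.01 in control 2 and 0.08 in knockdown 2. The transcripts of BTG2 and TOB2 were the richest in GC of the 5, at 50.3% and 54.1%, and those of BTG1, TOB1 and BTG3 held 38.7%, 42.1% and 44.2%. The part of GC content in these deviations was not tested.

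**Figure D4:**
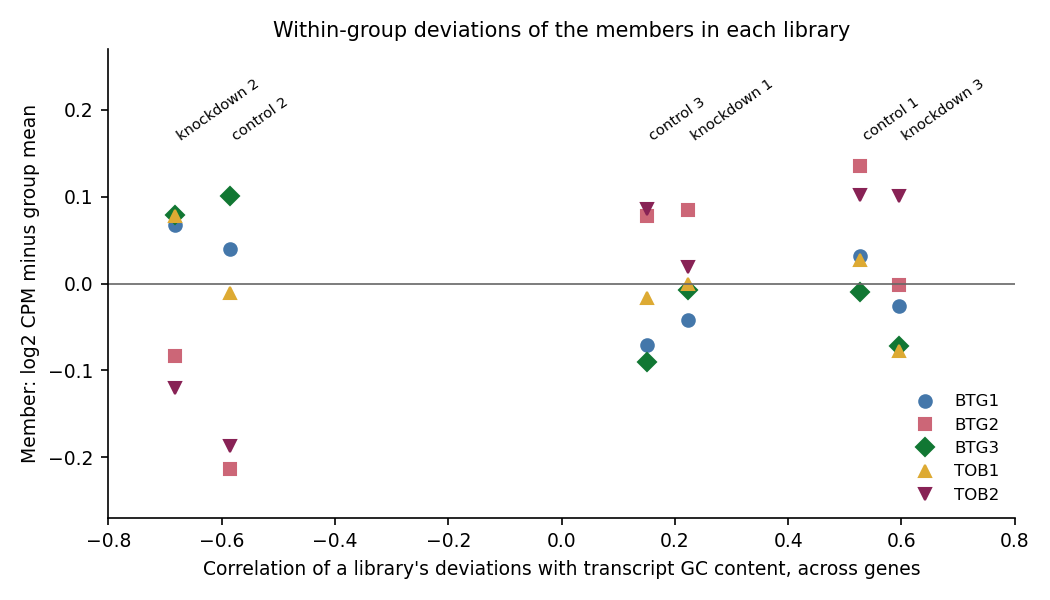
Deviation of each member's log2 CPM from its group mean (vertical axis) against the correlation of that library's deviations with transcript GC content across 11977 genes (horizontal axis). In control 2 and knockdown 2, at the left, BTG2 and TOB2 lie below 0 and BTG1 and BTG3 above it. TOB1 lies at -0.01 in control 2 and at 0.08 in knockdown 2.

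To compare the members with each other, CPM were divided by the length of all exons in kilobases. The order was the same in all 6 libraries, with BTG3 first, then TOB2, TOB1, BTG1 and BTG2. In control cells, the levels per kilobase were 25.0 ± 1.68 for BTG3, 13.0 ± 1.42 for TOB2, 9.80 ± 0.165 for TOB1, 6.74 ± 0.286 for BTG1 and 4.08 ± 0.515 for BTG2 (SD, n = 3). In knockdown cells they were 23.2 ± 1.23, 12.1 ± 0.931, 9.19 ± 0.496, 6.48 ± 0.266 and 5.37 ± 0.314, respectively. The ranges of neighbouring members did not overlap within either group. BTG2 thus remained the lowest member after its rise, and its share of the summed level per kilobase went from 5.99%-7.43% in the control libraries to 8.85%-10.1% in the knockdown libraries. The order was also the same when the length of 1 protein-coding mRNA per gene was used, although BTG3 then stood at 39.7 ± 2.65 CPM per kilobase in control cells.

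CNOT7 and CNOT8 had like levels per kilobase in control cells, 16.3 ± 1.03 and 16.7 ± 0.682, and 3.94 ± 0.394 and 20.4 ± 0.864 in knockdown cells (SD, n = 3). With the length of 1 mRNA per gene, the control levels were 25.8 ± 1.63 and 24.2 ± 0.99. By level per kilobase of all exons, CNOT8 made up 50.0% to 51.4% of the pair in the control libraries and 83.2% to 85.0% in the knockdown libraries. With the length of 1 mRNA per gene, these shares were 47.8% to 49.3% and 82.0% to 83.8%. Without division by length, CNOT7 averaged 179 CPM in control and 43.1 CPM in knockdown cells, and CNOT8 65.6 and 80.2 CPM. The summed level of the 5 members over the sum of CNOT7 and CNOT8 was 1.89, 1.67 and 1.78 in control libraries and 2.37, 2.22 and 2.36 in knockdown libraries. The summed level of the members was 57.6 to 60.1 CPM per kilobase in control and 55.5 to 57.2 in knockdown libraries, and that of CNOT7 and CNOT8 was 31.8 to 34.9 and 23.5 to 25.7. CNOT7, the targeted gene, is part of this ratio, so the direction of the ratio was largely set by the knockdown. The test of this ratio therefore does not bear on the members alone. The ratio was 1.30-fold higher in the knockdown, with an exact two-sided permutation p of 0.1 (0.15 after adjustment over the 3 ratios tested), and 0.1 is the smallest p that 3 against 3 libraries allow. The size of this difference depended on the scale, with a log2 value of 0.38 per kilobase and 0.93 without division by gene length.

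**Figure D5:**
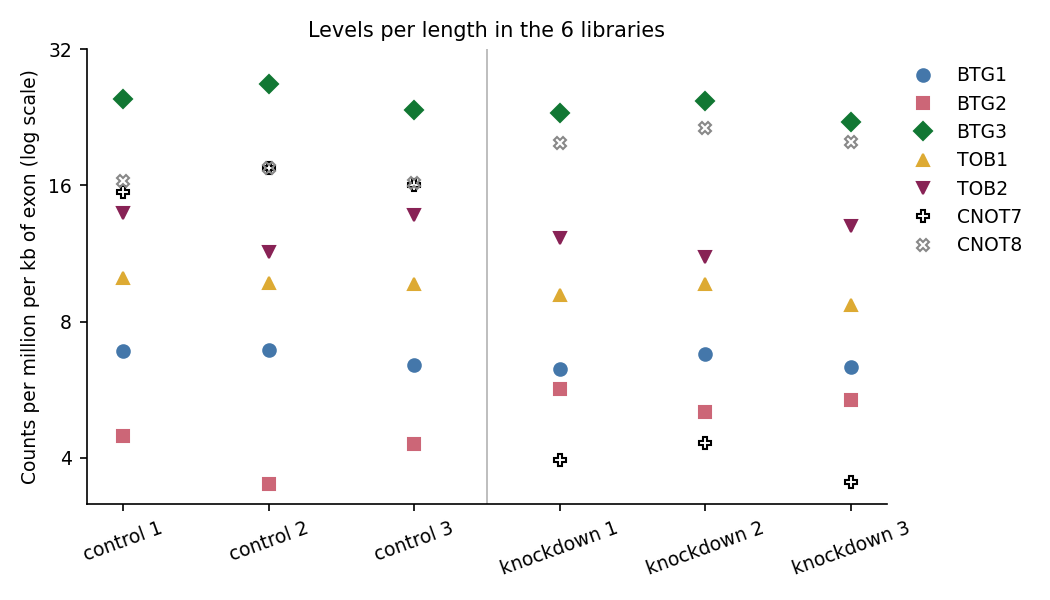
Level per kilobase of exon (vertical axis, CPM per kb, log scale) of the 5 members, CNOT7 and CNOT8 in each of the 6 libraries (horizontal axis). The members keep the same order in every library, from BTG3 to BTG2, and CNOT7 is at 16.3 in control and 3.94 in knockdown cells on average.

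The ratios between close paralogs were read within each library, where the scaling of libraries cancels out. The log2 ratio of BTG1 over BTG2, in levels per kilobase, was 0.63, 0.99 and 0.58 in control libraries and 0.15, 0.42 and 0.25 in knockdown libraries. All 3 knockdown values were below all control values, a difference of -0.46 on the log2 scale (exact two-sided permutation p = 0.1, adjusted p = 0.15). The linear ratio of TOB1 over TOB2 was 0.717, 0.854 and 0.704 in control and 0.748, 0.87 and 0.67 in knockdown libraries, with a log2 difference of 0.00531 and an exact permutation p of 1. In both groups, library 2 had the highest value of both paralog ratios.

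The coding sequences of the paralogs were compared, since reads of near-identical stretches could be counted for the wrong gene. BTG1 and BTG2 were identical at 63.6% of the columns of an alignment of their coding sequences, and TOB1 and TOB2 at 58.4%. The longest run shared by the coding sequences of BTG1 and BTG2 is shown as a description of their likeness. It lies at chr12:92145479-92145496 (minus strand) in BTG1 and at chr1:203305640-203305657 (plus strand) in BTG2, on GRCh38 with GENCODE 29 transcripts, and is 18 bases long.
BTG1 and BTG2: gagatcgccgccgccgtg
For TOB1 and TOB2 the longest shared run was 14 bases. Shared words of 75 bases were counted in 1 mRNA per member, which is shorter than the exons counted for the gene. None of the words of these BTG2 and TOB1 mRNAs occurred in a transcript of another gene, but other exons of TOB1 overlap TOB1-AS1. Such words made up 11.9% of BTG1, shared with the overlapping genes LINC01619 and AC025164.1, 12.7% of BTG3, shared with BTG3-AS1, and 3.21% of TOB2, shared with AC007228.1.

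The 3′ untranslated regions of the members, through which mRNAs are offered to CCR4-NOT, were read from 1 GENCODE 29 mRNA per gene. They were 3802 bases long in BTG1, 2164 in BTG2, 440 in BTG3, 757 in TOB1 and 2819 in TOB2. The pentamer ATTTA, the core of AU-rich elements that draw decay factors such as ZFP36, was searched on the mRNA strand. It occurred 5, 2, 3, 4 and 3 times in BTG1, BTG2, BTG3, TOB1 and TOB2, so all 5 members held it, as did 68.2% of the 13488 tested genes with such a region. Regions with it were longer (median 1652 bases) than those without it (348 bases). A match of letters is a description of the transcript and not a test of binding. Genes with ATTTA had a median log2 fold change of -0.01 and those without it of -0.0035.

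Transcripts that overlap or resemble the members had low counts. BTG4, the member expressed in oocytes, had counts of 8, 7 and 0 in control and 4, 2 and 2 in knockdown libraries and was not tested. BTG3-AS1, which shares 280 exonic bases (12.1%) with BTG3 on the other strand, had 19 to 35 counts in control and 23 to 46 in knockdown libraries (log2 fold change 0.10 ± 0.319 SE, edgeR adjusted p = 0.858). TOB1-AS1, which shares 281 bases (11.1%) with TOB1, had 4 to 9 and 7 to 15 counts and was not tested. Whether the counting used strand was not given in the sources used here, so reads of these pairs may not be told apart.

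LINC01619 and AC025164.1, which overlap BTG1 by 503 and 325 exonic bases, had at most 6 counts in any library. The pseudogene BTG1P1 had 0 to 2 counts, and BTG3P1 and BTG4P1 had 0 in all 6 libraries. TOB2P1, a processed pseudogene of TOB2, was counted 25, 14 and 20 times in control and 11, 6 and 12 times in knockdown libraries. It was lower in the knockdown, with a log2 fold change of -1.22 ± 0.389 (SE, edgeR adjusted p = 0.0288), at under 1 CPM in every library. This call was lost with DESeq2 (adjusted p = 0.0967) and in edgeR's test without control 1 (-1.05, adjusted p = 0.13), control 3 (-1.22, 0.0818), knockdown 1 (-1.34, 0.0609) or knockdown 2 (-0.99, 0.095).

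The genes around the family were read from lists of named partners. Over all genes tested, 13.3% were called higher and 11.9% lower, and no list was tested as a set. Of the 12 CCR4-NOT subunits, all tested, 1 was called higher (CNOT8) and 3 lower, with a median log2 fold change of -0.04. Besides CNOT7, the lower ones were CNOT9, the subunit that contacts many recruiting proteins, at -0.24 ± 0.0556 (SE, edgeR adjusted p = 0.00367), and CNOT3, a scaffold subunit, at -0.17 ± 0.0563 (adjusted p = 0.0338). The call on CNOT3 was lost with cyclic loess offsets (-0.12, adjusted p = 0.125) and without any 1 of control 1 (adjusted p = 0.131), control 3 (0.0896), knockdown 1 (0.0639), knockdown 2 (0.0574) or knockdown 3 (0.0616), with log2 fold changes of -0.15, -0.18, -0.20, -0.15 and -0.18. Of 8 tested genes for poly(A)-binding proteins, CPEB proteins and other deadenylases, 0 were called higher and 1 lower. This was CPEB4, a cytoplasmic polyadenylation factor, at -0.25 ± 0.0611 (adjusted p = 0.00555), and PABPC1, the partner of TOB1 and TOB2, was at 0.07 (adjusted p = 0.345).

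Among 15 other binding partners and modifiers of BTG/TOB proteins, 1 was called higher and 1 lower. The shares over all genes tested were 13.3% and 11.9%. SMAD9, one of the BMP-responsive SMADs, rose from 1.51 ± 0.364 to 3.37 ± 0.439 CPM (SD, n = 3; log2 fold change 1.16, edgeR adjusted p = 6.29e-04). E2F1, the S-phase transcription factor that BTG3 binds, was lower by a log2 fold change of -0.25 ± 0.0664 (adjusted p = 0.0105), and without control 3 the call was lost (-0.23, adjusted p = 0.0593). PRMT1, the arginine methyltransferase that binds BTG1 and BTG2, was at -0.11 (adjusted p = 0.101). SMAD4 stood at 2.04 and 2.26 CPM in the groups, and was not called.

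Of 5 genes for upstream regulators of the family, 1 was called higher and 0 lower, beside 13.3% and 11.9% of all genes tested. FOXO1, a forkhead factor known to act on BTG1, rose by 0.33 ± 0.0855 on the log2 scale (edgeR adjusted p = 0.00847). Without control 3 it was 0.29 and not called (adjusted p = 0.0577).

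Of 11 genes of the G1 phase, on which the family acts, 2 were called higher and 3 lower. Of all genes tested, 13.3% were called higher and 11.9% lower. CCND2, a D-type cyclin, had a log2 fold change of 1.28 ± 0.0774, and CDKN1A, the cyclin-dependent kinase inhibitor p21, one of 0.32 ± 0.0636 (SE, edgeR adjusted p = 3.29e-09 and 0.00124). CCNE2, an E-type cyclin, and CCND3 were lower, at -0.61 ± 0.118 and -0.45 ± 0.0724 (adjusted p = 9.86e-04 and 2.08e-04). The median over the list was -0.03.

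BTG2 is itself an immediate early gene, so 13 other genes of that kind were read beside it. Of these, 2 were called higher and 4 lower, beside 13.3% and 11.9% of all genes tested. FOS rose by 0.42 ± 0.0611 and MYC by 0.39 ± 0.0505 on the log2 scale (SE, edgeR adjusted p = 7.43e-05 and 2.52e-05). KLF6 and FOSL1 were lower, at -0.46 ± 0.0634 and -0.31 ± 0.0616 (adjusted p = 4.04e-05 and 0.00135). Also called lower were JUN (-0.26, adjusted p = 0.0049) and IER3 (-0.19, adjusted p = 0.00783). The call on IER3 was lost with cyclic loess offsets (-0.12, adjusted p = 0.0752) and without knockdown 1 (-0.18, adjusted p = 0.0517). EGR1 and IER2, which like BTG2 respond quickly to growth factors, had values of 0.04 (adjusted p = 0.607) and 0.21 (adjusted p = 0.0741).

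For each member, the 3 tested genes whose log2 CPM followed it most closely over the 6 libraries were found by Pearson's r, which lay between 0.973 and 0.998 and is given as a description. They were NBEAL2, SMIM2-AS1 and MYO15B for BTG2, NBPF14, DNAJC2 and MYLK for BTG1, and TMEM56-RWDD3, PCGF3 and SYT1 for BTG3. For TOB1 they were LAT, FBXO4 and POLE2, and for TOB2 INTS11, KCNJ4 and SOX12. Of the genes alike to BTG2, MYO15B and SMIM2-AS1 were called higher, with log2 fold changes of 0.35 and 1.07 (edgeR adjusted p = 0.00693 and 0.0486), and NBEAL2 was at 0.15 (adjusted p = 0.0689). The 6 points behind each r share library depth and base composition as well as the groups, and the genes were picked from 17574.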

How the data were processed

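Total RNA of SW480 cells was sequenced in 3 control and 3 CNOT7 knockdown libraries (TRIzol, NEBNext Ultra kit), grouped by the sample titles. The authors deposited raw counts per gene, without normalization, and a gene length. Per the submitters' processing notes, CASAVA 1.8, fastp, HISAT2 2.0.5, featureCounts 1.5.0-p3 and DESeq2 1.20.0 were used with GRCh38. Strandedness, read length and the handling of multi-mapping reads were not given in the sources used here. All 58735 positions and lengths equal those of GENCODE 29. The table had 0 count columns without a sample.

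The members and lists were chosen with earlier results of these data known. Counts were fitted in R 4.3.3 with edgeR 4.0.16 (filterByExpr, 17574 of 34509 genes with a count, TMM, glmQLFit and glmQLFTest), with Benjamini-Hochberg adjustment over all genes tested and a threshold of 0.05. The SE is the absolute log2 fold change over the square root of F. Ratios were compared by exact permutation over libraries. Sequences were read from GENCODE 29 with Python 3.11.15 and Biopython 1.88, aligned globally for the coding sequences, and GC content was known for 17564 genes tested.

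Named were the members, transcripts with their symbols or overlapping them, CNOT7 and CNOT8, up to 4 called genes per list with the largest changes, and the 3 genes most alike to each member. PABPC1, PRMT1, SMAD4, EGR1, IER2, JUN, IER3 and the markers were named besides, after their values were seen. The main edgeR fit, DESeq2, the replicate term and the cyclic loess, length and GC offsets were tested on simulated data. The RLE factors, the other count filters and the fits that lacked 1 library were not. On counts simulated without a GC trend, the edgeR fit recovered 165 of 200 changed genes with 7 false calls among 17081. The fits with GC and length offsets were tried on other simulated counts, with a GC trend planted in 1 library of each group. They recovered 159 of 200 with 10 false calls among 17053, so the 2 results are not comparable. The main fit was not tried on counts with a GC trend. The planted changes were larger than that of any member. Alternatives were DESeq2 1.42.0, RLE factors, 2 other count filters, cyclic loess, length and GC offsets, a term for the replicate number, and fits that each lacked 1 library.

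Replicates within a group differed by more than sampling, with a chi-square per degree of freedom of 3.25 to 10.6, so none was counted as a copy. Depth is given as total counts, and with 224 to 1765 counts per member and library the intervals show the precision reached. Some items are not reported here.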

Additional observations from a re-analysis of the deposited data

How the results depend on the processing

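The number of genes called was 4424 and ranged from 3030 to 4542 when 1 library was left out. It was 6508 with a replicate block and, in alternatives chosen after seeing the data, 7090 with trends along GC content and gene length removed and 6611 with the mean of those trends set to 0. The split of calls was sensitive to centring: 52.6% were higher in the main analysis, 35.9% with the gene length trend removed, 34.4% with the GC and length trends removed and 49.5% with the mean trend set to 0.

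The count of members called was 1, and 0 to 1 with 1 library left out, since BTG2 was not called without control replicate 2 (log2 fold change 0.29, adjusted p = 0.0526) or knockdown replicate 1 (0.34, adjusted p = 0.0764), which reduces each fit to 5 libraries. Its range over left-out libraries was 0.29 to 0.46. The count was 3 with GC and length trends removed, where BTG3 (-0.16) and TOB2 (-0.18) were called lower and the median gene was at -0.05. In that setting 7090 of the 17574 genes tested were called, 4649 of them lower. No member's log2 fold change changed sign in any of the 15 alternatives. The ranges over left-out libraries were -0.09 to -0.04 for BTG1, -0.15 to -0.06 for BTG3, -0.13 to -0.06 for TOB1 and -0.19 to -0.05 for TOB2.

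The partner lists, with 12, 8, 15, 5, 11 and 13 genes tested, held 19 called genes, the targeted gene CNOT7 among them. This count was 16 to 24 with 1 library left out. It was 29 with the gene length trend removed, 37 in both fits with GC and length trends and 36 with a replicate block. Of all 17574 genes tested, 4424 were called in the main analysis and 5207 with the gene length trend removed. The calls over all genes were 7090 and 6611 in the fits with GC and length trends and 6508 with a replicate block. The replicate numbers were not treated as pairs: same-numbered libraries deviated together with r = 0.14, 0.51 and 0.0513 for numbers 1, 2 and 3, and control 1 deviated most like knockdown 3 (0.44). With the block, BTG2 had a log2 fold change of 0.40 (adjusted p = 5.59e-04) and no other member was called.

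The log2 difference of BTG1 over BTG2 ranged from -0.54 to -0.33 and that of the members over CNOT7 and CNOT8 from 0.34 to 0.43 when 1 library was left out. Without division by gene length, the latter was 0.93 in place of 0.38, on a scale where CNOT7 carries the weight of its long exons. TOB1 over TOB2, at 0.00531, had no stable sign, with -0.03, -0.05 and -0.094 without control replicate 1, control replicate 3 or knockdown replicate 2, in a range of -0.094 to 0.095. The cause of the shifts with 1 library left out was not tested. With 3 libraries a group, the intervals given for each member show the precision reached, and the smallest detectable difference was not tested.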
